A study of Mus musculus with 8 samples.

Results

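Amino acid transporters were read as the genes whose symbols place them in the solute carrier families SLC1, SLC3, SLC6, SLC7, SLC36, SLC38 and SLC43. The gene tables listed 62 such genes of 50763 genes in all. Of these 62, 40 had enough reads to be tested and 22 did not, among them 3 with no read in any library (Slc1a6, Slc7a9 and Slc7a12). The other untested members had at most 33 reads over the 8 libraries together, against 43 to 108376 reads for the tested ones. 1 further gene with a matching symbol is not analysed here.

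RNA came from phagocytes of mouse brains carrying GL261 glioma, a mouse glioma cell line that here expressed mCherry and EGFP and had been injected into the brain. Live cells positive for both mCherry and CD45.2 were sorted on day 23 after implantation, so the collected cells carried tumour fluorescence together with a leukocyte surface protein. The hosts were C57BL/6 wild-type mice (WT) or muMT mice, which lack B cells, and each host received an isotype control IgG or anti-CTLA-4. Crossing 2 hosts with 2 antibodies gave 4 groups that shared the tumour line, the day and the sort, with 2 libraries in each. Separate mice are not named in the labels for the libraries of a group, so the tests measure the spread between libraries, which may be technical. A single tumour line was used, and the muMT defect is present throughout the host.

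Amino acids do not cross membranes freely and enter or leave cells through carriers. Heteromeric carriers pair a heavy chain, which anchors the complex in the membrane, with a light chain that moves the amino acid in exchange for another one. SLC1, SLC6 and SLC38 proteins use ion gradients, whereas several but not all SLC36 carriers are driven by protons, some of them at lysosomes. In macrophages, arginine, cystine, glutamine and tryptophan uptake feed nitric oxide and polyamine synthesis, glutathione, the citric acid cycle and kynurenine.

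Total reads in genes ran from 24784639 to 31289104 per library. Reads assigned to no gene on the counted strand made up 18.6% to 20.8% in the muMT libraries. In WT they made up 28.4% to 29.5% under isotype and 33.1% to 33.3% under anti-CTLA-4. The part of these differences in the host comparisons, in the WT antibody comparison and in the difference of the antibody effects was not tested. Libraries of a group correlated at 0.992 or more over log values and libraries of different groups at 0.982 or less. Markers of the sorted phagocytes (Itgam, Csf1r, Cd68, Adgre1, Lyz2 and Ptprc) summed to 9340 to 13590 counts per 1000000 reads (CPM), and all 6 were expressed. Microglial markers (5 of 5 tested) summed to 1646 and 1764 CPM with isotype and 1102 and 1130 with anti-CTLA-4 in muMT, and 1526 and 1530 with isotype and 1298 and 1348 with anti-CTLA-4 in WT. Markers of border-associated macrophages (4 of 4) summed to 2233 to 2351 CPM in the muMT libraries. In WT they summed to 1618 and 1689 CPM under isotype and 575 and 591 CPM under anti-CTLA-4. Single markers were not uniform: anti-CTLA-4 against isotype called 2 higher and 1 lower in muMT, and 1 higher and 3 lower in WT. Fibroblast and mural markers (6 of 6) summed to 360 and 364 CPM in muMT and 250 and 260 in WT under isotype, and 131 and 131 in muMT and 177 and 180 in WT under anti-CTLA-4. Endothelial markers (6 of 6) summed to 142 and 146 CPM in muMT isotype, and to 243 to 287 CPM in the other 6 libraries. The higher sum in muMT under anti-CTLA-4 was not shared by all 6, of which 2 were called higher and 3 lower there (median log2 -0.26). T and NK cell markers summed to at most 18.0 CPM with Trac at 0, and B cell markers (3 of 4 tested) to at most 8.42 CPM. Of the 3 tested B cell markers, 1 was called higher in WT than in muMT under isotype and 2 under anti-CTLA-4, with none lower. Neutrophil markers (3 of 5 tested) summed to 3.89 and 5.07 CPM in WT anti-CTLA-4 and to 14.2 to 16.3 CPM in the other 6 libraries. Oligodendrocyte markers (6 of 6) summed to 87.4 and 91.1 CPM in muMT isotype and to 56.9 to 64.4 CPM elsewhere. These sums differed between the groups, and their part in the transporter values was not tested. In RNA from pooled cells, fewer cells of a type and less RNA per cell cannot be told apart.

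Under anti-CTLA-4, 21 of the 40 tested transporters had effects that differed between the hosts. This difference was called for 37.3% of all tested genes, with 51.9% at 10 CPM or more and 21.6% under 10 CPM. Slc7a11, the cystine and glutamate exchanger, and Slc7a8, a light chain for neutral amino acids, rose in both hosts and rose more in WT. Slc1a5 and Slc7a5, which bring in glutamine and large neutral amino acids, rose in muMT and fell in WT. The creatine carrier Slc6a8 and the glutamate carrier Slc1a1 did the reverse. Of all tested genes, 4.88% rose in both hosts, 4.92% fell in WT and rose in muMT, and 2.96% did the reverse. The WT calls of Slc7a5 and Slc1a1 were lost in 8 and 5 of 16 alternative settings. Levels are CPM scaled by trimmed means of M values, and a gene was called when its adjusted p was under 0.05 in edgeR's quasi-likelihood test, with Benjamini-Hochberg adjustment over all 16608 tested genes. The antibody comparisons in WT and in muMT share no library, but the difference between them and the host comparisons reuse the same libraries.

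In WT, anti-CTLA-4 against isotype called 17 of the 40 tested members, 6 higher and 11 lower. Among all tested genes 30.5% were called, 14.7% higher and 15.9% lower. The median log2 change of the members was -0.13, against -0.01 over all genes. Without WT anti-CTLA-4 replicate 2 the WT count was 11. In muMT the same contrast called 20 members, 10 higher and 10 lower, where 42.5% of all genes were called, 22.1% higher and 20.4% lower. The members' median log2 change in muMT was -0.04, against 0.00 over all genes.

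The difference of the antibody effect, WT minus muMT, was called for 21 members, 10 with a higher and 11 with a lower effect in WT. Over all genes it was called for 37.3%, of which the higher share was 17.5% and the lower share 19.8%. The median size of this difference regardless of sign was 0.46 on the log2 scale for the members and 0.37 for all genes. WT against muMT called 17 members under isotype, 10 higher and 7 lower, with 39.2% of all genes called, 19.9% higher and 19.2% lower. Under anti-CTLA-4 the hosts differed in 32 members, 16 higher and 16 lower in WT, and 13 of them by at least 2-fold, of which 12 averaged under 10 CPM. Of all genes, 56.1% were called there, 27.4% higher and 28.7% lower, and 13.3% were called at 2-fold or more. The median size of the host difference under anti-CTLA-4 was 0.78 on the log2 scale for the members and 0.39 for all genes.

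Calls were also counted by level. 21 members averaged at least 10 CPM over the 8 libraries (12.2 to 482 CPM) and 19 averaged less (0.192 to 3.07 CPM). Of the 21 more abundant members, 15 were called in WT (4 higher, 11 lower), 11 in muMT (6 higher, 5 lower) and 16 in the difference (7 higher, 9 lower). Of the 19 scarcer members, 2 were called in WT, 9 in muMT and 5 in the difference. Over all genes of at least 10 CPM the shares called were 42.5% in WT, 56.3% in muMT and 51.9% in the difference, and under 10 CPM 17.6%, 27.8% and 21.6%. The scarcer members carried the larger median sizes given above. For the difference, the median size was 0.40 in the more abundant members (0.26 over all genes of that level) and 1.40 in the scarcer ones (0.575 over all genes under 10 CPM). For the hosts under anti-CTLA-4 it was 0.34 in the more abundant members (0.30 over all genes of that level) and 1.46 in the scarcer ones (0.58). Of all genes under 10 CPM, 22.9% were called at 2-fold or more between the hosts under anti-CTLA-4. The 19 scarcer members averaged at most 3.07 CPM, so their levels are not closely matched to all genes under 10 CPM. Among them, Slc6a4, Slc6a12 and Slc36a3 passed the filter on read counts only through muMT anti-CTLA-4. Slc3a1 passed it only through WT anti-CTLA-4, and Slc38a11 only through WT libraries. The sizes of their group differences are therefore not independent of the filter, which was applied to all genes.

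Across both hosts together, 2 members rose in each (Slc7a11 and Slc7a8) and 2 fell in each (Slc36a1 and Slc43a2). Slc1a5 and Slc7a5 fell in WT and rose in muMT, and Slc6a8 and Slc1a1 rose in WT and fell in muMT. Over all tested genes, 4.88% rose in both hosts and 4.94% fell in both, 4.92% fell in WT and rose in muMT, and 2.96% did the reverse. In WT alone, 9 members were called (12.8% of all genes), and the difference itself was called for 6 of these 9, as for 63.1% of all genes called in WT alone. In muMT alone, 12 were called (24.8% of all genes), and the difference was called for 8 of these 12, as for 63.2% of such genes. The remaining 11 members were called in neither host, as were 44.7% of all genes.

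**Figure D1:**
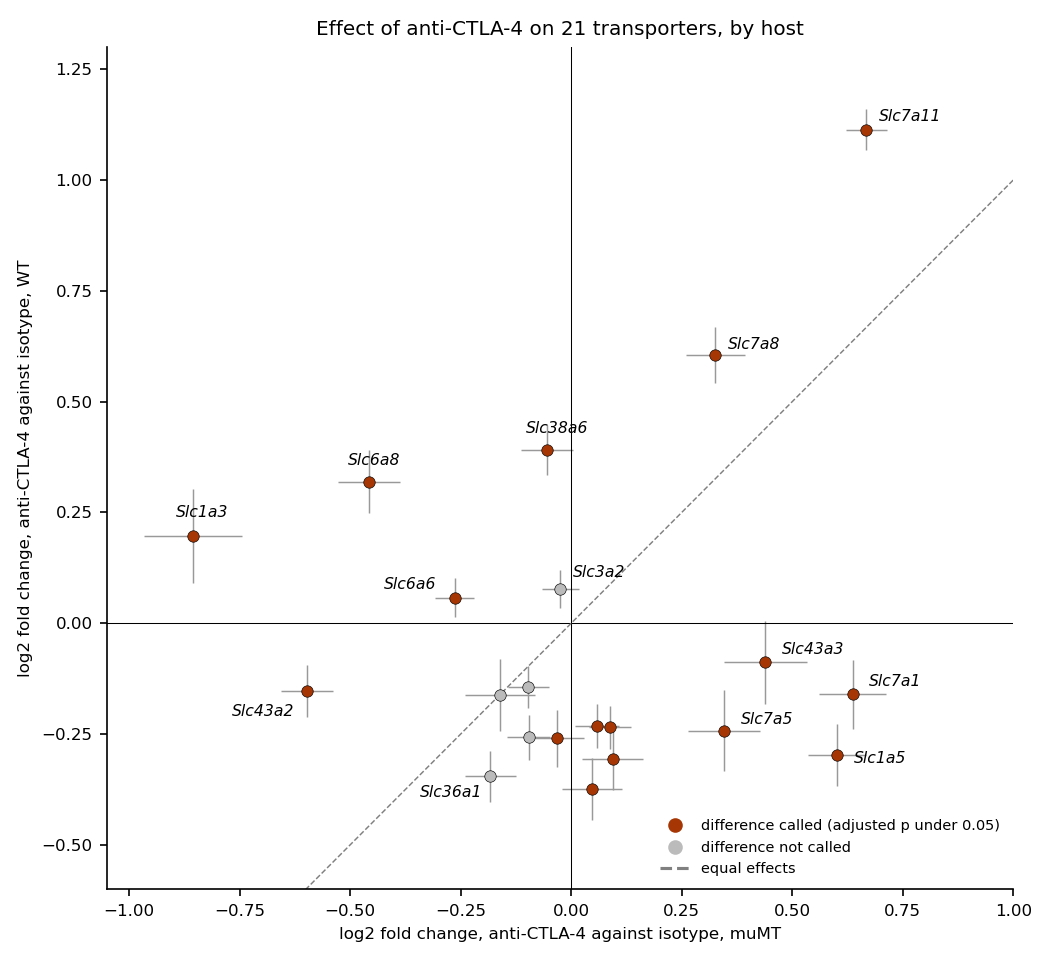
Log2 change under anti-CTLA-4 in muMT (horizontal axis) against the log2 change in WT (vertical axis) for the 21 transporters that averaged at least 10 CPM; bars are standard errors of the fit and the dashed line marks equal effects. Slc7a11 (0.67 and 1.11) and Slc7a8 (0.33 and 0.60) lie in the upper right, whereas Slc1a5 and Slc7a5 lie in the lower right and Slc6a8 in the upper left.

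Promoter sequence was available for 29 of the 40 tested members (45 of the 62) in the RefSeq table of GRCm38.p6, an older assembly than the mm39 used for the counts. Each window runs from 250 bases before the annotated start to 50 bases after it, and some genes have several. Both strands were searched for TGATGNAA, the core of the amino acid response element, and for TGACNNNGC, the core of the antioxidant response element. The first stood in 3.97% of 32851 windows of all genes and the second in 12.4%. The 29 tested members had 45 windows. TGATGNAA occurred in 4 of these windows, at 3 tested members, Slc7a11, Slc1a4 and Slc7a7. TGACNNNGC occurred in 9 of these windows, at 7 tested members, namely Slc36a1, Slc38a2, Slc43a1, Slc6a13, Slc6a9, Slc7a1 and Slc7a6. A match describes letters in the window and shows no binding.

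The windows of Slc7a11, which rose in both hosts, and of Slc1a4 and Slc7a7, which share its TGATGNAA match, are shown with the window of Slc7a1, whose antibody effect differed between hosts and which holds the other motif. Capitals mark the matches, read 5′ to 3′ on the strand of the gene. Slc7a11 is at chr3:50443564-50443863 (minus strand), Slc1a4 at chr11:20332664-20332963 (minus strand), Slc7a7 at chr14:54417895-54418194 (minus strand) and Slc7a1 at chr5:148399855-148400154 (minus strand).
Slc7a11: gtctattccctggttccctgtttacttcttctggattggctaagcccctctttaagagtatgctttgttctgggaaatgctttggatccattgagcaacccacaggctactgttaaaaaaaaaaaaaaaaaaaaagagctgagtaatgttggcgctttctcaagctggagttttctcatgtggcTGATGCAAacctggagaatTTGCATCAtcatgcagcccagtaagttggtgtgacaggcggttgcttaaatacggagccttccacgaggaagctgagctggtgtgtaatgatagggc
Slc1a4: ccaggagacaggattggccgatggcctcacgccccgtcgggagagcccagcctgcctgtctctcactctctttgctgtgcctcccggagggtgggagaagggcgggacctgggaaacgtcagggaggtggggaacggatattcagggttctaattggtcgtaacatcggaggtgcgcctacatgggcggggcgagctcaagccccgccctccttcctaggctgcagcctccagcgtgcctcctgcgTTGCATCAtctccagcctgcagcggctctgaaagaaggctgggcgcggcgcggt
Slc7a7: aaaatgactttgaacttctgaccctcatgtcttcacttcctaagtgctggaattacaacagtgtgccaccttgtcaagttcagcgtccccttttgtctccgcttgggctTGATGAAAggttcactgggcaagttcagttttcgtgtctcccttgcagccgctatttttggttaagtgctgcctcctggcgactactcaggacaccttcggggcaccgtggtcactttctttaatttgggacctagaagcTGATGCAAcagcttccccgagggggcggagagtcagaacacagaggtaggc
Slc7a1: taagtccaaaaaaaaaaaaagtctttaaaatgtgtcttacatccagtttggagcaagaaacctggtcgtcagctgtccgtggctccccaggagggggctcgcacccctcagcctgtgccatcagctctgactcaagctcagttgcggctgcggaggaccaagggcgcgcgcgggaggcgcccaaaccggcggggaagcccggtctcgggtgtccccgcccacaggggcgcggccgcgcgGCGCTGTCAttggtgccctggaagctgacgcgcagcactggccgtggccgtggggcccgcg
The Slc7a11 window held 2 matches on opposite strands, starting 66 and 47 bases before the start of the gene. The Slc1a4 match lay 4 bases before its start, on the opposite strand. In Slc7a7 the matches began 141 bases and 1 base before the start. These 3 genes did not move alike: Slc7a11 rose in both hosts, Slc7a7 fell in WT and Slc1a4 was called in neither host.

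The heavy chain Slc3a2 (CD98), shared by most of the light chains, had the highest level per length of all tested members, 107.9 CPM per kilobase of exon over the 8 libraries. Its values were 399 and 414 CPM with isotype and 399 and 400 with anti-CTLA-4 in muMT, and 354 and 344 with isotype and 370 and 365 with anti-CTLA-4 in WT. The WT libraries all lay below the muMT libraries, and within each host the antibody groups lay close together. Anti-CTLA-4 changed Slc3a2 by a log2 value of 0.08 ± 0.04 (SE) in WT and -0.02 ± 0.04 in muMT, with edgeR adjusted p of 0.188 and 0.68. Slc3a2 was lower in WT than in muMT under isotype, by a log2 change of -0.22 ± 0.04 (edgeR adjusted p = 0.000113). Under anti-CTLA-4 its host difference of -0.12 ± 0.04 (edgeR adjusted p = 0.0183) was lost when any of the 4 anti-CTLA-4 libraries was left out, with values of -0.12 to -0.13, and was -0.06 with library size as the only scaling.

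Slc7a11 (xCT), which imports cystine in exchange for glutamate and so supplies cysteine for glutathione, lies on chromosome 3 (chr3:49892526-50443614, minus strand, GRCm38). It measured 319 and 293 CPM in muMT and 347 and 371 in WT under isotype, and 485 and 486 in muMT and 767 and 788 in WT under anti-CTLA-4. Both antibody groups lay above both isotype groups, and the WT anti-CTLA-4 libraries were the highest. The rise under anti-CTLA-4 was 2.16-fold in WT (log2 1.11 ± 0.05, edgeR adjusted p = 2.58e-18) and 1.59-fold in muMT (log2 0.67 ± 0.05, edgeR adjusted p = 5.58e-13). The effect was larger in WT by 0.45 ± 0.07 on the log2 scale (edgeR adjusted p = 2.11e-06). WT also exceeded muMT, 1.18-fold under isotype and 1.6-fold under anti-CTLA-4.

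Slc7a8 (LAT2), a light chain for neutral amino acids, lies at chr14:54722209-54781946 on the minus strand (GRCm38). Its values were 61.8 and 75.1 CPM with isotype and 87.2 and 84.3 with anti-CTLA-4 in muMT, and 115 and 106 with isotype and 171 and 163 with anti-CTLA-4 in WT. The 4 groups did not overlap and stood in that order. Anti-CTLA-4 raised Slc7a8 1.52-fold in WT (log2 0.60 ± 0.06, edgeR adjusted p = 1.47e-08) and 1.25-fold in muMT (log2 0.33 ± 0.07, edgeR adjusted p = 0.000248), the latter 0.20 without muMT isotype replicate 1. The difference of these effects, 0.28 ± 0.09 on the log2 scale (edgeR adjusted p = 0.0183), was lost without muMT isotype replicate 2 (0.13), muMT anti-CTLA-4 replicate 2 (0.25), WT isotype replicate 2 (0.22) or WT anti-CTLA-4 replicate 1 (0.24). WT exceeded muMT 1.61-fold under isotype and 1.95-fold under anti-CTLA-4.

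Slc7a5 (LAT1), the light chain that brings in leucine, tryptophan and other large neutral amino acids, lies at chr8:121881150-121907694 on the minus strand (GRCm38). It measured 28.2 and 32.5 CPM in muMT and 24.8 and 23.3 in WT under isotype, and 37.0 and 40.1 in muMT and 22.1 and 18.6 in WT under anti-CTLA-4. Every muMT library lay above every WT library. Slc7a5 rose 1.27-fold under anti-CTLA-4 in muMT (log2 0.35 ± 0.08, edgeR adjusted p = 0.000882), and the effect in WT was lower than that by 0.59 ± 0.12 on the log2 scale (edgeR adjusted p = 0.000265). Its fall in WT, with a log2 change of -0.24 ± 0.09 (edgeR adjusted p = 0.0413), was lost in 8 of the 16 alternative settings. Left-out libraries that ended this call were either muMT anti-CTLA-4 library (-0.23 each), either WT isotype library (-0.20 and -0.28) and WT anti-CTLA-4 replicate 2 (-0.12). Under anti-CTLA-4, Slc7a5 was lower in WT than in muMT by a log2 change of -0.92 ± 0.09 (edgeR adjusted p = 1.91e-10).

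Slc7a7, the light chain that exports cationic amino acids in exchange for neutral ones, measured 48.9 and 50.1 CPM with isotype and 49.1 and 47.6 with anti-CTLA-4 in muMT, and 48.1 and 47.0 with isotype and 40.7 and 38.8 with anti-CTLA-4 in WT. The WT anti-CTLA-4 libraries were the lowest, and the other 3 groups lay within 47.0 to 50.1 CPM. Slc7a7 fell in WT, with a log2 change of -0.26 ± 0.06 (edgeR adjusted p = 0.00193), a call lost without WT anti-CTLA-4 replicate 2 (-0.23). The difference from muMT, -0.23 ± 0.09 on the log2 scale (edgeR adjusted p = 0.043), was lost in 12 of the 16 settings. Those settings included leaving out any library but muMT isotype replicate 2, with values of -0.20 to -0.27. Slc7a6, a light chain for cationic and neutral amino acids, averaged 26.7 ± 0.78 CPM (SD, n = 2) in muMT and 24.9 ± 1.96 in WT under isotype, and 23.9 ± 0.81 in muMT and 22.3 ± 0.73 in WT under anti-CTLA-4, and was called in no comparison.

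Summed per kilobase of exon, the 5 tested light chains amounted in muMT to 0.559 and 0.562 of the Slc3a2 level under isotype and 0.727 and 0.725 under anti-CTLA-4. In WT the ratio was 0.739 and 0.760 under isotype and 1.07 in both libraries under anti-CTLA-4. The ratio was thus lowest in muMT isotype and highest in WT anti-CTLA-4, without overlap between groups. Slc7a11 made up 31.9% to 36.2% of the light-chain sum in the 4 isotype libraries, 42.4% in both muMT anti-CTLA-4 libraries, and 48.9% and 51.1% in the WT anti-CTLA-4 libraries. These ratios and shares describe RNA and use exon lengths of an older annotation that count every annotated exon, so their size depends on it.

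Slc3a1, the heavy chain of the renal cystine carrier, had 57 reads in all. It had 2 and 4 reads with isotype and 1 and 3 with anti-CTLA-4 in muMT, and 8 and 6 with isotype and 14 and 19 with anti-CTLA-4 in WT. Every WT library held more reads than every muMT library. Slc3a1 passed the filter on read counts only through WT anti-CTLA-4, so a call of a higher level there is not independent of the filter. Slc3a1 was higher in WT than in muMT under anti-CTLA-4, by a fitted log2 change of 3.15 ± 0.74 (edgeR adjusted p = 0.00056). The value was 2.57 without muMT anti-CTLA-4 replicate 1 and 4.08 without replicate 2 of that group, and 2.5 with both strands counted.

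**Figure D2:**
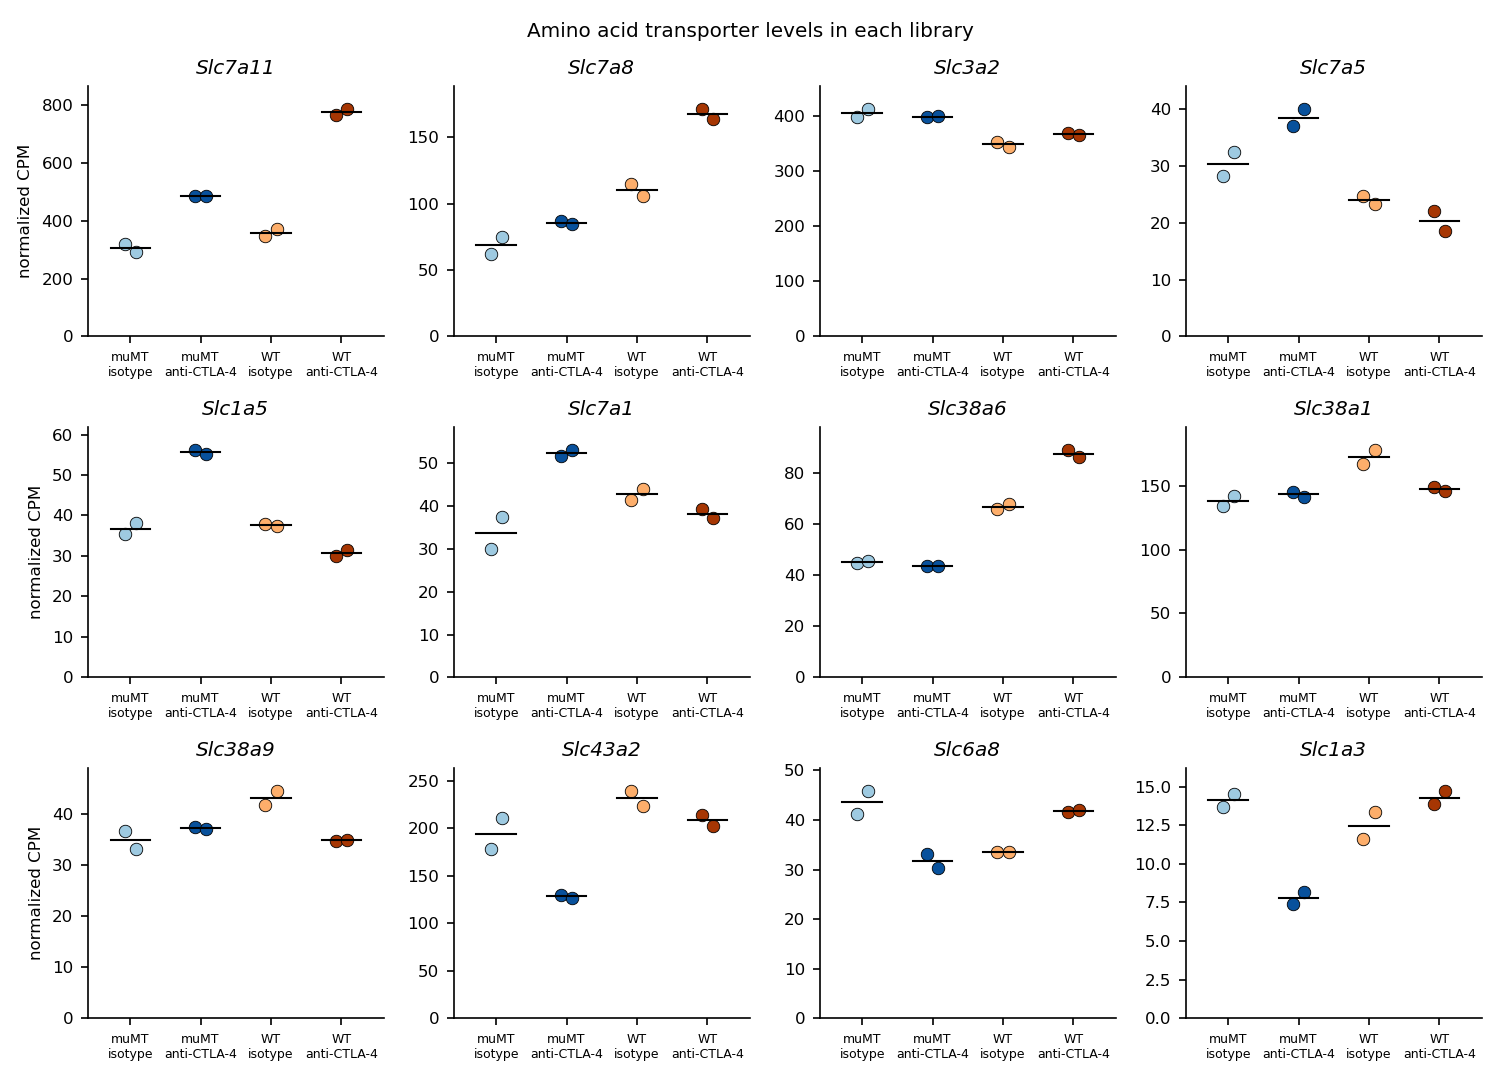
CPM in each library (points, 2 per group) and group means (lines) for 12 transporters, each panel with its own axis from 0. Slc7a11, Slc7a8 and Slc38a6 were highest in the 2 WT anti-CTLA-4 libraries, while Slc1a5, Slc7a5 and Slc7a1 were highest in muMT anti-CTLA-4.

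Slc7a1 (CAT1), the carrier that takes up arginine and lysine, lies at chr5:148327410-148399904 on the minus strand (GRCm38). It measured 30.1 and 37.5 CPM in muMT and 41.5 and 44.0 in WT under isotype, and 51.7 and 53.2 in muMT and 39.4 and 37.2 in WT under anti-CTLA-4. The muMT anti-CTLA-4 libraries were the highest and the muMT isotype libraries overlapped only with WT anti-CTLA-4. In muMT, anti-CTLA-4 raised Slc7a1 1.55-fold (log2 0.64 ± 0.08, edgeR adjusted p = 4.8e-08). In WT the log2 change was -0.16 ± 0.08 (edgeR adjusted p = 0.122), which was called (adjusted p = 0.0496) when muMT isotype replicate 1 was left out of edgeR's fit. The effect in WT was below that in muMT by 0.80 ± 0.11 on the log2 scale (edgeR adjusted p = 7.19e-07).

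Slc7a4, a relative of the cationic carriers whose substrate is not settled, measured 1.01 and 1.22 CPM with isotype and 1.75 and 2.21 with anti-CTLA-4 in muMT, and 1.41 and 1.65 with isotype and 1.12 and 0.845 with anti-CTLA-4 in WT. It was highest in muMT anti-CTLA-4, without overlap. The effect of anti-CTLA-4 on Slc7a4 was lower in WT than in muMT by 1.47 ± 0.42 on the log2 scale (edgeR adjusted p = 0.00586). The rise in muMT (log2 0.83 ± 0.28, edgeR adjusted p = 0.0183) was lost without muMT isotype replicate 1 (0.71) or muMT anti-CTLA-4 replicate 2 (0.66). Slc7a3, another arginine carrier, averaged 0.211 to 0.493 CPM per group and was called in no comparison.

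Slc1a5 (ASCT2), the exchanger that imports glutamine, lies at chr7:16781340-16798274 on the plus strand (GRCm38). It measured 35.3 and 38.2 CPM in muMT and 38 and 37.4 in WT under isotype, and 56.2 and 55.2 in muMT and 29.9 and 31.5 in WT under anti-CTLA-4. The isotype groups overlapped, muMT anti-CTLA-4 lay above them and WT anti-CTLA-4 below. Anti-CTLA-4 raised Slc1a5 1.52-fold in muMT (log2 0.60 ± 0.06, edgeR adjusted p = 6.67e-09) and lowered it in WT, with a log2 change of -0.30 ± 0.07 (edgeR adjusted p = 0.00115). The effects differed by -0.90 ± 0.09 on the log2 scale (edgeR adjusted p = 6.9e-09). Under isotype the hosts differed by a log2 value of 0.04 ± 0.07, which was not called. Under anti-CTLA-4, Slc1a5 was lower in WT by a log2 change of -0.86 ± 0.07 (edgeR adjusted p = 3.63e-12).

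Slc1a3 (GLAST), a glutamate importer best known from astrocytes, lies at chr15:8634124-8710764 on the minus strand (GRCm38). Its values were 13.7 and 14.5 CPM with isotype and 7.39 and 8.20 with anti-CTLA-4 in muMT, and 11.6 and 13.4 with isotype and 13.9 and 14.7 with anti-CTLA-4 in WT. Only the muMT anti-CTLA-4 libraries lay under 10 CPM. Slc1a3 fell in muMT, with a log2 change of -0.86 ± 0.11 (edgeR adjusted p = 2.01e-07), and the effect in WT was higher than that by 1.05 ± 0.15 on the log2 scale (edgeR adjusted p = 2.17e-06). Slc1a2 (GLT-1), the main glutamate importer of astrocytes, measured 1.47 and 1.45 CPM in muMT and 2.65 and 2.56 in WT under isotype, and 1.62 and 1.19 in muMT and 3.48 and 3.45 in WT under anti-CTLA-4. All WT libraries exceeded all muMT libraries, by a log2 value of 0.83 ± 0.23 under isotype (edgeR adjusted p = 0.00502) and 1.3 ± 0.23 under anti-CTLA-4 (edgeR adjusted p = 1.54e-05).

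The astrocyte markers (6 of 6 tested: Gfap, Aqp4, Aldh1l1, Gja1, Slc4a4 and Aldoc) summed to 44.7 to 46.3 CPM with isotype and 53.2 to 54.1 with anti-CTLA-4 in muMT, and 47.8 to 48.6 with isotype and 52.3 to 55.4 with anti-CTLA-4 in WT. Gfap itself was at 1.39 to 1.53 CPM in muMT and 2.77 to 3.29 in WT under isotype, and 0.923 to 1.80 in muMT and 4.41 to 4.49 in WT under anti-CTLA-4. Slc1a2 and Gfap were both higher in the WT libraries, but Gja1 was higher in the muMT libraries (9.05 to 12.7 CPM) than in WT (6.94 to 8.38). Of the 6 markers, 1 was called higher and 1 lower in WT under isotype, and 3 higher and 1 lower under anti-CTLA-4. The part of astrocyte RNA in these values was not tested. When reads of both strands were counted, Slc1a2 was called in WT (log2 1.06, edgeR adjusted p = 4.00e-06) and in the difference (log2 0.83), and its isotype host difference was not called (log2 0.33).

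Slc1a1 (EAAC1), which carries glutamate and cysteine, lies at chr19:28835049-28913960 on the plus strand (GRCm38). It measured 1.67 and 1.89 CPM with isotype and 0.363 and 0.681 with anti-CTLA-4 in muMT, and 1.13 and 1.54 with isotype and 1.80 and 2.76 with anti-CTLA-4 in WT. The muMT anti-CTLA-4 libraries lay below all others. Slc1a1 fell in muMT by a log2 change of -1.77 ± 0.35 (edgeR adjusted p = 0.000115), and the effect in WT exceeded that in muMT by 2.54 ± 0.46 on the log2 scale (edgeR adjusted p = 4.4e-05). Its rise in WT (log2 0.77 ± 0.29, edgeR adjusted p = 0.0439) was lost without WT isotype replicate 1 (0.57), WT isotype replicate 2 (1.02) or WT anti-CTLA-4 replicate 2 (0.43). Slc1a4 (ASCT1), a carrier of serine and alanine, averaged 3.97 ± 0.16 CPM (SD, n = 2) in muMT and 2.68 ± 0.56 in WT under isotype, and 3.43 ± 0.23 in muMT and 2.21 ± 0.16 in WT under anti-CTLA-4. Slc1a4 was lower in WT under isotype (log2 -0.57) and under anti-CTLA-4 (log2 -0.64). Those calls were lost without muMT isotype replicate 1 (-0.53) or WT isotype replicate 2 (-0.37), and without muMT anti-CTLA-4 replicate 1 or WT anti-CTLA-4 replicate 2 (-0.57 each).

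Among the SLC38 carriers, 9 of 11 were tested. In WT under anti-CTLA-4, 5 of them fell and 2 rose, against 1 fall and no rise in muMT, where 30.5% of all genes were called in WT and 42.5% in muMT. The WT calls of Slc38a2 and Slc38a5 were lost in 6 and 3 of the 16 settings. Slc38a2 (SNAT2), a glutamine and alanine importer, was the most abundant of them per length. It measured 297 and 291 CPM with isotype and 274 and 276 with anti-CTLA-4 in muMT, and 273 and 300 with isotype and 256 and 262 with anti-CTLA-4 in WT. The WT anti-CTLA-4 libraries were the lowest, while the WT isotype libraries spanned the muMT values. Its fall in WT (log2 -0.14 ± 0.05, edgeR adjusted p = 0.0182) was lost without WT isotype replicate 2 (-0.07), either WT anti-CTLA-4 library (-0.12 and -0.17) or either muMT anti-CTLA-4 library (-0.14 each).

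Slc38a1 (SNAT1), also a glutamine importer, measured 134 and 142 CPM in muMT and 167 and 178 in WT under isotype, and 145 and 141 in muMT and 149 and 146 in WT under anti-CTLA-4. The WT isotype libraries were the highest. Slc38a1 fell in WT with a log2 change of -0.23 ± 0.05 (edgeR adjusted p = 0.000471), and the difference from the muMT effect was -0.29 ± 0.07 (edgeR adjusted p = 0.00146). Slc38a9, the lysosomal carrier that reports arginine to the kinase complex mTORC1, had values of 36.7 and 33.1 CPM with isotype and 37.3 and 37.1 with anti-CTLA-4 in muMT, and 41.6 and 44.5 with isotype and 34.7 and 34.9 with anti-CTLA-4 in WT. It too was highest in WT isotype, without overlap. Slc38a9 fell in WT with a log2 change of -0.31 ± 0.07 (edgeR adjusted p = 0.000929), and the difference from muMT was -0.40 ± 0.10 (edgeR adjusted p = 0.00171).

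Slc38a6, a less studied member of this family, went the other way. Its gene lies at chr12:73286779-73354049 on the plus strand (GRCm38). Its values were 44.8 and 45.8 CPM in muMT and 66.0 and 67.8 in WT under isotype, and 43.6 and 43.6 in muMT and 89.2 and 86.2 in WT under anti-CTLA-4. The WT groups lay above the muMT groups, and WT anti-CTLA-4 above WT isotype. Slc38a6 rose 1.31-fold in WT (log2 0.39 ± 0.06, edgeR adjusted p = 1.51e-06) and was not called in muMT (log2 -0.05 ± 0.06). The effects differed by 0.45 ± 0.08 on the log2 scale (edgeR adjusted p = 5.96e-05), and under anti-CTLA-4 WT exceeded muMT 2.01-fold.

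Slc38a7, a lysosomal exporter of glutamine and asparagine, averaged 46.2 ± 3.21 CPM (SD, n = 2) with isotype and 47.7 ± 1.19 with anti-CTLA-4 in muMT, and 50.05 ± 3.91 with isotype and 38.6 ± 0.21 with anti-CTLA-4 in WT. It fell in WT with a log2 change of -0.37 ± 0.07 (edgeR adjusted p = 7.36e-05). Slc38a10 averaged 157 ± 5.49 CPM in muMT and 154 ± 4.65 in WT under isotype, and 166 ± 3.96 in muMT and 131 ± 0.86 in WT under anti-CTLA-4. It fell in WT with a log2 change of -0.24 ± 0.05 (edgeR adjusted p = 0.000332). For both, the WT effect was below the muMT effect, by 0.42 for Slc38a7 and 0.32 for Slc38a10 on the log2 scale. For the latter, the muMT change (log2 0.09) was called only without muMT isotype replicate 2 (0.13).

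Scarcer SLC38 members moved as well. Slc38a5, a glutamine carrier, measured 0.653 and 0.406 CPM with isotype and 0.429 and 0.476 with anti-CTLA-4 in muMT, and 1.03 and 0.631 with isotype and 1.2 and 2.24 with anti-CTLA-4 in WT. WT anti-CTLA-4 held the highest values, with a wide gap between its libraries. Its rise in WT (2.09-fold, edgeR adjusted p = 0.0274) was lost without WT isotype replicate 2 (log2 0.76) or WT anti-CTLA-4 replicate 2 (log2 0.53), against 1.06 with all libraries. Slc38a3, another glutamine carrier, measured 2.29 and 1.93 CPM in muMT and 1.45 and 1.3 in WT under isotype, and 1.06 and 1.57 in muMT and 1.96 and 2.17 in WT under anti-CTLA-4. The effect of anti-CTLA-4 on Slc38a3 was higher in WT than in muMT by 1.28 ± 0.37 on the log2 scale (edgeR adjusted p = 0.00736), a call lost without muMT anti-CTLA-4 replicate 1 (1.02). Its fall in muMT (log2 -0.69) was likewise lost without muMT anti-CTLA-4 replicate 1 (-0.42) or muMT isotype replicate 1 (-0.55).

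Slc38a11 had 8 and 4 reads with isotype and 2 and 1 with anti-CTLA-4 in muMT, and 14 and 10 with isotype and 11 and 14 with anti-CTLA-4 in WT. Under anti-CTLA-4 it held 25 reads in WT against 3 in muMT, a depth-scaled ratio of 9.92 with a 95% interval of 3.03 to 51.3 that covers counting error only. All WT libraries held more Slc38a11 reads than all muMT libraries. Slc38a11 passed the filter on read counts only through WT libraries.

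**Figure D3:**
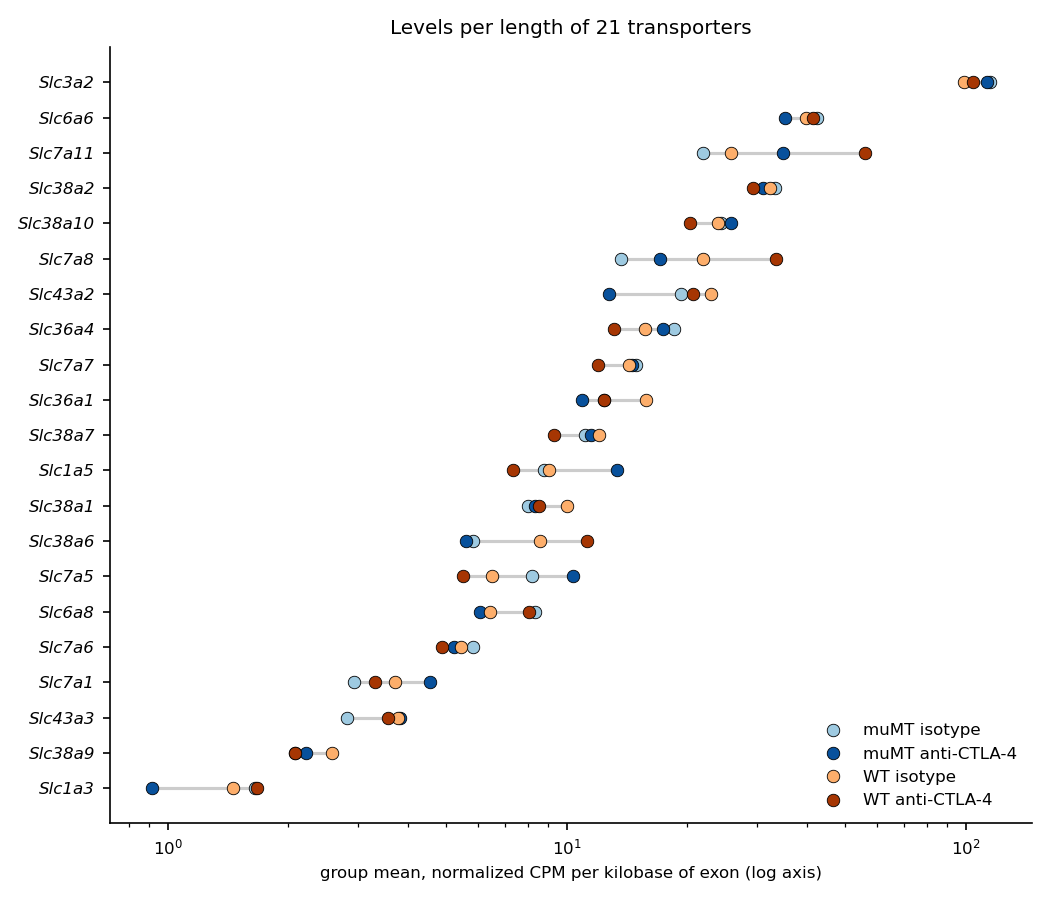
Group means in CPM per kilobase of exon (logarithmic axis) for the 21 transporters that averaged at least 10 CPM, ordered by their mean over the 8 libraries, with grey bars from the lowest to the highest group. Slc3a2 stood first at 107.9 and Slc1a3 last at 1.43; Slc7a11 spanned 22.0 in muMT isotype to 55.8 in WT anti-CTLA-4.

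Per kilobase of exon, the order after Slc3a2 was the taurine carrier Slc6a6 at 39.8 CPM per kilobase, Slc7a11 at 34.6, Slc38a2 at 31.5, Slc38a10 at 23.7, Slc7a8 at 21.6 and Slc43a2 at 19.0. These lengths count every annotated exon, whether or not it is used in these cells, so the order between genes depends on the annotation. The rank of Slc7a11 depended on the group. In muMT isotype it stood at 22.0 CPM per kilobase, under Slc6a6 (42.4) and Slc38a2 (33.3), and in WT anti-CTLA-4 at 55.8, above Slc6a6 (41.5) and Slc38a2 (29.3).

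Among the SLC36 carriers, Slc36a1 (PAT1), which exports small amino acids from lysosomes, measured 66.6 and 73.2 CPM in muMT and 90.7 and 87.2 in WT under isotype, and 60.8 and 62.4 in muMT and 71.1 and 68.9 in WT under anti-CTLA-4. In each host the antibody group lay below the isotype group. The fall was -0.35 ± 0.06 on the log2 scale in WT (edgeR adjusted p = 1.64e-05) and -0.18 ± 0.06 in muMT (edgeR adjusted p = 0.0112). Leaving out muMT isotype replicate 2 (-0.10) or either anti-CTLA-4 library of muMT (-0.15 and -0.19) ended the muMT call. The difference between hosts, -0.16 ± 0.08, was not called with all libraries (edgeR adjusted p = 0.123) and was called without muMT isotype replicate 2 (-0.23).

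Slc36a4, a carrier of proline and tryptophan, averaged 122 ± 1.90 CPM (SD, n = 2) with isotype and 114 ± 0.24 with anti-CTLA-4 in muMT, and 103 ± 1.26 with isotype and 86.0 ± 0.18 with anti-CTLA-4 in WT. It fell in WT with a log2 change of -0.26 ± 0.05 (edgeR adjusted p = 0.000163), and WT was lower than muMT under both antibodies (log2 -0.24 and -0.41). Slc36a2, a carrier of glycine and proline, lies at chr11:55158470-55185077 on the minus strand (GRCm38). Slc36a2 measured 3.04 and 1.76 CPM in muMT and 2.19 and 1.58 in WT under isotype, and 6.27 and 5.14 in muMT and 1.92 and 1.47 in WT under anti-CTLA-4. Only muMT anti-CTLA-4 stood above the rest. It rose 2.37-fold in muMT (log2 1.25 ± 0.21, edgeR adjusted p = 2e-05), and the WT effect was below that by 1.40 ± 0.35 on the log2 scale (edgeR adjusted p = 0.00194).

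Slc36a3 had 10 and 6 reads with isotype and 25 and 14 with anti-CTLA-4 in muMT, and 9 and 9 with isotype and 5 and 6 with anti-CTLA-4 in WT. Its most reads were in muMT anti-CTLA-4, as for Slc36a2. Slc36a3 passed the filter on read counts only through that group, so a call of a higher level there is not independent of the filter. Under anti-CTLA-4 it was lower in WT (log2 -1.61 ± 0.58, edgeR adjusted p = 0.0186), a call lost without muMT anti-CTLA-4 replicate 1 (-1.17) and without each anti-CTLA-4 library of WT (-1.55 and -1.69).

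Of the SLC43 carriers, Slc43a2 (LAT4), which moves branched-chain amino acids, phenylalanine and methionine, averaged 194 ± 22.7 CPM (SD, n = 2) in muMT and 232 ± 11.1 in WT under isotype, and 129 ± 2.50 in muMT and 208 ± 8.35 in WT under anti-CTLA-4. The muMT anti-CTLA-4 group was the lowest. Slc43a2 fell in muMT with a log2 change of -0.60 ± 0.06 (edgeR adjusted p = 2.93e-09), and the WT effect was higher than that by 0.44 ± 0.08 on the log2 scale (edgeR adjusted p = 9.54e-05). Its fall in WT (log2 -0.15 ± 0.06, edgeR adjusted p = 0.0455) was lost in 8 of 16 settings. Among these were leaving out WT isotype replicate 1 (-0.11), WT anti-CTLA-4 replicate 1 (-0.19) or replicate 2 (-0.11), and muMT anti-CTLA-4 replicate 1 or 2 (-0.14 each). Slc43a1 (LAT3), a close relative, averaged 0.309 to 0.433 CPM per group and was called in no comparison.

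Slc43a3, which is named with the family but carries purine nucleobases, measured 12 and 13.3 CPM with isotype and 17.2 and 16.9 with anti-CTLA-4 in muMT, and 16.8 and 17.0 with isotype and 15.6 and 16.2 with anti-CTLA-4 in WT. The muMT isotype libraries were the lowest. It rose 1.36-fold in muMT under anti-CTLA-4 (log2 0.44 ± 0.09, edgeR adjusted p = 0.000296), and the WT effect was below that by 0.53 ± 0.13 on the log2 scale (edgeR adjusted p = 0.00195).

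Among the SLC6 carriers 9 of 21 were tested, and several of them carry substrates other than amino acids of proteins. Slc6a6, the taurine importer, measured 350 and 368 CPM in muMT and 338 and 336 in WT under isotype, and 299 and 299 in muMT and 360 and 341 in WT under anti-CTLA-4. It was lowest in muMT anti-CTLA-4. Slc6a6 fell in muMT with a log2 change of -0.26 ± 0.04 (edgeR adjusted p = 1.4e-05) and the WT effect was higher by 0.32 ± 0.06 (edgeR adjusted p = 0.000135). Slc6a8, the creatine importer, lies at chrX:73673150-73682502 on the plus strand (GRCm38) and measured 41.2 and 45.9 CPM with isotype and 33.1 and 30.2 with anti-CTLA-4 in muMT, and 33.6 and 33.5 with isotype and 41.6 and 42.1 with anti-CTLA-4 in WT. High values alternated: muMT isotype and WT anti-CTLA-4 were high, the other 2 groups low. Slc6a8 rose 1.25-fold in WT (log2 0.32 ± 0.07, edgeR adjusted p = 0.000771) and fell in muMT (log2 -0.46 ± 0.07, edgeR adjusted p = 3.66e-06), with a difference of 0.78 ± 0.10 (edgeR adjusted p = 2.91e-07).

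Slc6a19, a neutral amino acid carrier best known from gut and kidney, measured 1.34 and 1.96 CPM in muMT and 0.742 and 0.947 in WT under isotype, and 0.660 and 0.885 in muMT and 1.40 and 1.58 in WT under anti-CTLA-4. It showed the same alternation as Slc6a8. The antibody effect on Slc6a19 was higher in WT than in muMT by 1.91 ± 0.46 on the log2 scale (edgeR adjusted p = 0.0014). Its fall in muMT (log2 -1.09 ± 0.32, edgeR adjusted p = 0.00664) was lost without muMT isotype replicate 2 (-0.78) or muMT anti-CTLA-4 replicate 1 (-0.88). The WT change (log2 0.82, edgeR adjusted p = 0.0599) was called when either muMT isotype library was left out (0.83 each).

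Slc6a15, a neuronal carrier of branched-chain amino acids and proline, measured 1.57 and 2.33 CPM with isotype and 0.956 and 0.953 with anti-CTLA-4 in muMT, and 0.530 and 0.982 with isotype and 0.320 and 0.367 with anti-CTLA-4 in WT. Its levels were highest in muMT isotype and lowest in WT anti-CTLA-4. Slc6a15 was lower in WT than in muMT under isotype (log2 -1.36 ± 0.34, edgeR adjusted p = 0.00171) and under anti-CTLA-4 (log2 -1.46 ± 0.44, edgeR adjusted p = 0.00556). The isotype call was lost without WT isotype replicate 1 (-0.98). Its fall in muMT (log2 -1.02) was lost without muMT isotype replicate 2 (-0.70) or either muMT anti-CTLA-4 library (-1.02 and -1.01). The WT change (log2 -1.12) was called only without WT isotype replicate 1 (-1.5).

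Neuronal markers (3 of 6 tested) summed to 24.7 and 24.9 CPM in muMT and 14.4 and 14.5 in WT under isotype, and 16.6 and 16.6 in muMT and 7.81 and 8.56 in WT under anti-CTLA-4. The group means stood in the same order as for Slc6a15, and the part of neuronal RNA in it was not tested. Slc6a17, a neuronal vesicle carrier, had 8 and 11 reads with isotype and 3 and 2 with anti-CTLA-4 in muMT, and 18 and 21 with isotype and 16 and 15 with anti-CTLA-4 in WT. Under anti-CTLA-4 Slc6a17 was higher in WT than in muMT (log2 2.77 ± 0.66, edgeR adjusted p = 0.000731). Its fall in muMT (log2 -1.86) was lost in 9 of 16 settings, including without muMT isotype replicate 2 (-1.58), muMT anti-CTLA-4 replicate 1 (-2.13) or replicate 2 (-1.62) or any of the 4 WT libraries (-1.86 each).

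Slc6a4, the serotonin carrier, had 5 and 6 reads in muMT and 1 and 2 in WT under isotype, and 29 and 28 in muMT and 0 and 5 in WT under anti-CTLA-4. Its reads were concentrated in muMT anti-CTLA-4. Slc6a4 passed the filter on read counts only through that group, so calls of a higher level there are not independent of the filter. It rose in muMT by a fitted log2 change of 2.36 ± 0.59 (edgeR adjusted p = 0.00157) and was lower in WT under anti-CTLA-4 (log2 -3.26 ± 0.69, edgeR adjusted p = 0.000166). That fold rests on 5 reads in 1 WT library: the fitted value was -2.35 without WT anti-CTLA-4 replicate 1, and -7.79 without replicate 2, which leaves no read in that group and so gives no bound. Between the WT groups, 5 against 3 reads gave a ratio of 1.79 with a 95% interval of 0.349 to 11.6. Slc6a4 is also known from mast cells, whose markers (4 of 4) summed to 16.4 and 18.2 CPM with isotype and 5.48 and 6.02 with anti-CTLA-4 in muMT, and 11.5 and 11.7 with isotype and 19.1 and 19.4 with anti-CTLA-4 in WT. The part of mast cell RNA in the Slc6a4 values was not tested.

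Slc6a12, a betaine and GABA carrier, had 2 and 3 reads in muMT and 0 and 2 in WT under isotype, and 12 and 24 in muMT and 3 and 5 in WT under anti-CTLA-4. Slc6a12 too passed the filter on read counts only through muMT anti-CTLA-4, so calls of a higher level there are not independent of the filter. Its rise in muMT (fitted log2 2.80 ± 0.74, edgeR adjusted p = 0.00276) was lost without muMT anti-CTLA-4 replicate 2 (2.20). The lower level in WT under anti-CTLA-4 (log2 -1.95) was lost without that library (-1.35) or without WT anti-CTLA-4 replicate 1 (-1.70) or replicate 2 (-2.30). Slc6a9, a glycine carrier, averaged 2.56 ± 0.49 CPM (SD, n = 2) with isotype and 2.96 ± 0.53 with anti-CTLA-4 in muMT, and 1.73 ± 0.26 with isotype and 1.5 ± 0.20 with anti-CTLA-4 in WT, and was lower in WT under anti-CTLA-4 (log2 -0.98 ± 0.24, edgeR adjusted p = 0.00105). Slc6a13, a GABA carrier, averaged 0.123 to 0.309 CPM per group and was called in no comparison.

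Genes that use imported amino acids were examined in lists written from textbook knowledge. Of all tested genes, 30.5% were called in WT (14.7% higher, 15.9% lower) and 42.5% in muMT (22.1% higher, 20.4% lower). The difference was called for 37.3% (17.5% higher, 19.8% lower), with 51.9% at 10 CPM or more and 21.6% under 10 CPM. The list counts were not split by level. The aminoacyl-tRNA synthetases, which load amino acids onto transfer RNA, numbered 20 and all were tested. In muMT under anti-CTLA-4, 17 rose and none fell, and in WT 1 rose and 9 fell. The difference was called lower in WT for all 20, with a median log2 value of -0.53 against 0.01 over all genes. Iars1, the isoleucine enzyme, measured 40.4 and 43.9 CPM in muMT and 58.2 and 57.6 in WT under isotype, and 59.3 and 62.6 in muMT and 47.1 and 45.5 in WT under anti-CTLA-4. Its effects differed by -0.85 ± 0.09 on the log2 scale (edgeR adjusted p = 4.79e-09). Next by p were Mars1 (-0.84), Farsb (-0.77) and Lars1 (-0.57), the enzymes for methionine, phenylalanine and leucine. The exception in WT was Wars1, the tryptophan enzyme, which rose in both hosts (log2 0.34 in WT and 0.71 in muMT).

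**Figure D4:**
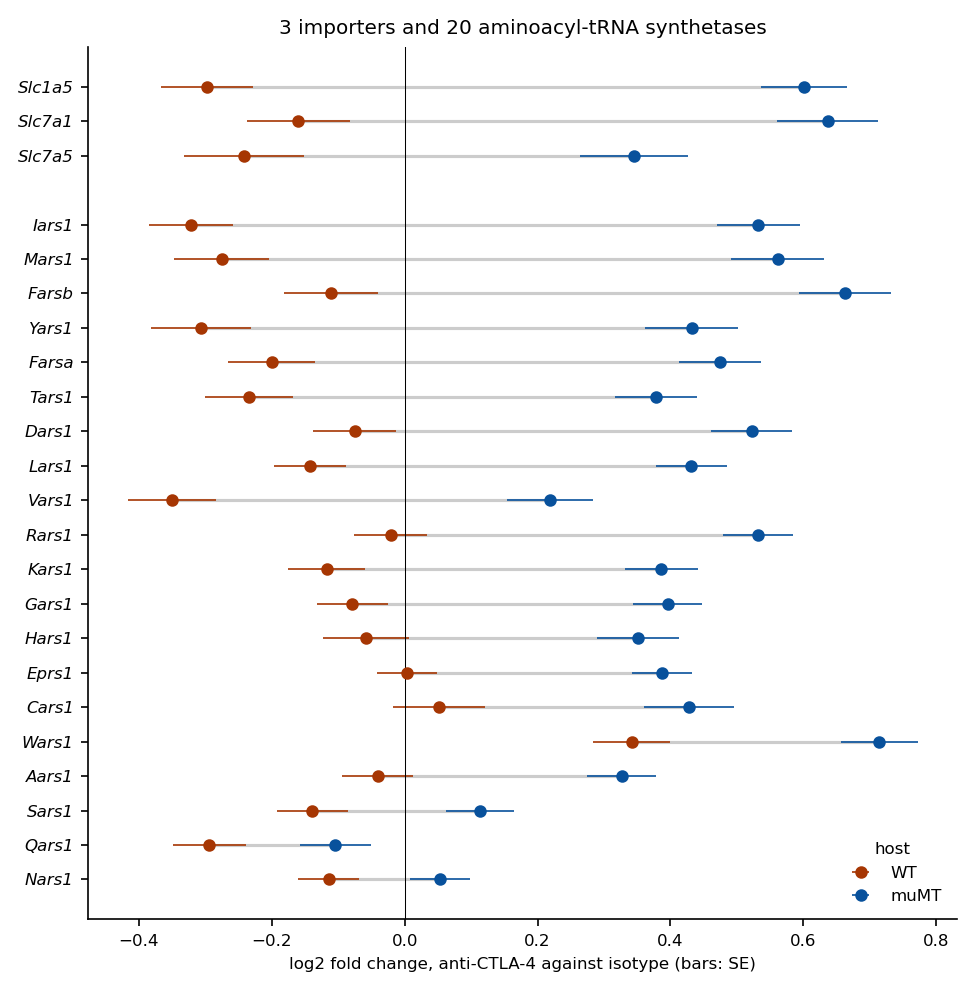
Log2 change under anti-CTLA-4 in WT and in muMT for 3 importers (Slc1a5, Slc7a1 and Slc7a5) and the 20 aminoacyl-tRNA synthetases, ordered by the difference between hosts; bars are standard errors of the fit and grey lines join the 2 hosts. The 3 importers were chosen for their lower effect in WT; in all 20 synthetases the muMT value lies to the right of the WT value.

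The list of ATF4 and its amino acid response targets had 21 tested genes. In muMT 8 rose and 4 fell, in WT 1 rose and 8 fell, and the difference was called higher for 2 and lower for 10. The shares of all genes called were 42.5% in muMT, 30.5% in WT and 37.3% in the difference. WT against muMT was called for 13 of them under isotype, 4 higher and 9 lower, and for 16 under anti-CTLA-4, 1 higher and 15 lower. These host comparisons called 39.2% of all genes under isotype and 56.1% under anti-CTLA-4. Shmt2, which makes glycine from serine, differed in effect by -1.47 ± 0.11 on the log2 scale (edgeR adjusted p = 2.78e-12), with a rise in muMT (0.74) and a fall in WT (-0.73). Gpt2 (-0.96), Psat1 (-0.59) and Mthfd2 (-0.73) also had lower effects in WT. Atf4 itself, which encodes the transcription factor of this response, was lower in WT than in muMT, by a log2 change of -0.96 under isotype and -0.85 under anti-CTLA-4, and was called under the antibody in neither host.

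Glutathione synthesis and related antioxidant genes numbered 14 tested. In WT 4 rose and 5 fell, and in muMT 5 rose and 3 fell, where 30.5% of all genes were called in WT and 42.5% in muMT. Gclm, the regulatory subunit of the enzyme that starts glutathione synthesis, measured 18.9 and 17.3 CPM with isotype and 27.6 and 27.5 with anti-CTLA-4 in muMT, and 19.3 and 19.4 with isotype and 39.2 and 38.7 with anti-CTLA-4 in WT, the same order of groups as Slc7a11. Gclm rose by log2 values of 1.01 in WT and 0.61 in muMT, and the difference of 0.40 ± 0.11 was called (edgeR adjusted p = 0.00379). Hmox1 (0.76 and 0.55), Txnrd1 (0.63 and 0.31) and Gclc (0.58 and 0.24) rose in both hosts as well, each with a larger effect in WT. The list was not uniform. Gpx1, which uses glutathione to remove peroxides, fell in WT (log2 -0.15) and rose in muMT (log2 0.12), and Gsr, which regenerates reduced glutathione, fell in both (log2 -0.42 in WT and -0.26 in muMT).

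Of 31 tested genes of amino acid breakdown and use, 8 rose and 10 fell in WT and 14 rose and 5 fell in muMT. The difference was called for 18 (8 higher, 10 lower). The shares of all genes called were 30.5% in WT, 42.5% in muMT and 37.3% in the difference. Arg1, which splits arginine, rose by log2 1.84 ± 0.04 in muMT (edgeR adjusted p = 5.77e-25) and by 0.20 in WT. Nos2, which makes nitric oxide from arginine, rose by 2.44 ± 0.05 in WT (edgeR adjusted p = 3.37e-25) and by 1.47 in muMT. Aldh18a1, an enzyme of proline synthesis, and Gatm, which starts creatine synthesis, had lower effects in WT than in muMT by 1.85 and 1.11 on the log2 scale. Kmo, an enzyme of tryptophan breakdown through kynurenine, rose in muMT (log2 1.59) and fell in WT (log2 -1.34). Gatm and the creatine importer Slc6a8 moved in opposite directions in each host, with Gatm at -0.20 in WT and 0.91 in muMT.

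Of 34 tested genes through which amino acids act on mTORC1, 3 rose and 5 fell in WT, and 6 rose and 12 fell in muMT. The difference was called for 13, 7 higher and 6 lower. For this list and the next, the shares of all genes called were 30.5% in WT, 42.5% in muMT and 37.3% in the difference. Fnip2, a partner of folliculin, rose in WT (0.40) and fell in muMT (-0.45), and the effects differed by 0.85 ± 0.06 on the log2 scale (edgeR adjusted p = 1.98e-12). Sec13 (-0.60), Fnip1 (0.50) and Lamtor2 (-0.73) followed by p. Among 7 tested carriers of other families, 3 rose and 3 fell in WT, none rose and 3 fell in muMT, and the difference was called higher for 4 and lower for 1. Slc15a2, a peptide importer, rose in WT (log2 0.66) and fell in muMT (log2 -0.70), and the effects differed by 1.35 ± 0.11 (edgeR adjusted p = 2.83e-11). Slc16a10, an aromatic amino acid carrier, rose in WT (log2 0.71) and was not called in muMT (log2 -0.09), with a difference of 0.80 ± 0.09 (edgeR adjusted p = 2.42e-08).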

How the data were processed

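Each library's gene table was deposited by the authors as raw counts of reads per gene, as STAR writes them. Per the submitters' processing notes, cutadapt 5.0, STAR 2.7, the build mm39 and DESeq2 1.42.1 were used; the gene annotation is not given in the sources used here. Per the labels, libraries were stranded, and the reverse-strand column was used (reverse over forward total, 23.3 to 26.5).

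Members and lists were chosen with earlier results of these data known. Counts were filtered with filterByExpr, scaled by TMM and fitted by robust quasi-likelihood in edgeR 4.0.16 under R 4.3.3. The fit had a mean for each of 4 groups over 8 libraries, 4 residual degrees of freedom and a common biological coefficient of variation of 4.11%. SE is the log2 change over the square root of F. Chi-square per degree of freedom between the replicates was 1.77 to 7.5, above counting error. The replicates were counted as separate libraries, and this spread does not show whether they came from separate mice. Levels between genes were compared per kilobase of exon union in GENCODE M21 (GRCm38). The code was tested on simulated counts. Intervals cover counting error only.

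All tested members are named. Values in every library are given for members called in the difference at a log2 size of at least 0.5, members called at 2-fold or more elsewhere, and 15 chosen by role (Slc7a5, Slc3a2, Slc7a11, Slc7a1, Slc7a7, Slc7a8, Slc1a5, Slc1a2, Slc1a3, Slc38a1, Slc38a2, Slc6a6, Slc6a8, Slc36a1, Slc38a9). Other lists name up to 4 genes by smallest p in the difference, plus Wars1, Atf4, Hmox1, Gsr and Nos2, chosen after their values were seen. Alternatives were DESeq2 size factors, library size alone, no filter, both strands counted, no robust dispersion, the replicate number as a block, only the libraries compared, each library left out, and the Wald test of DESeq2 1.42.0. Per-sample depth ran from 24784639 to 31289104 reads in genes.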

Additional observations from a re-analysis of the deposited data

Results flagged for a closer look

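For 21 of the 40 tested transporters the effect of anti-CTLA-4 differed between WT and muMT by the interaction contrast of edgeR. The same contrast was called for 37.3% of all tested genes, with 51.9% at 10 CPM or more and 21.6% under 10 CPM. The values given are WT minus muMT on the log2 scale. Effects were higher in WT for Slc1a1 (2.54), Slc6a19 (1.91), Slc38a3 (1.28), Slc1a3 (1.05), Slc6a8 (0.78), Slc38a6 (0.45), Slc7a11 (0.45), Slc43a2 (0.44), Slc6a6 (0.32) and Slc7a8 (0.28). Effects were lower in WT for Slc7a4 (-1.47), Slc36a2 (-1.40), Slc1a5 (-0.90), Slc7a1 (-0.80), Slc7a5 (-0.59), Slc43a3 (-0.53), Slc38a7 (-0.42), Slc38a9 (-0.40), Slc38a10 (-0.32), Slc38a1 (-0.29) and Slc7a7 (-0.23). Slc1a1, Slc6a19, Slc38a3, Slc7a4 and Slc36a2 averaged under 10 CPM, and 3 of the others (Slc7a11, Slc7a8 and Slc43a2) were called in the same direction in both hosts and differed in size. Of these, the WT call of Slc43a2 was lost in 8 of 16 settings, and the Slc7a8 difference was lost without any of 4 libraries (0.13 to 0.25). The Slc7a7 difference was lost in 12 of the 16 settings, and the Slc38a3 difference without muMT anti-CTLA-4 replicate 1 (1.015). With 2 libraries per group, outlying libraries could not be tested for.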

How the results depend on the processing

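Over 16 alternative settings, 2999 of 3143 member values kept their side of the threshold, among them 52 uncalled values that changed sign. Another 113 lost their call, 31 gained one and none that was called reversed. With each library left out in turn, the count of members called ranged from 11 to 19 in WT (17 with all libraries), from 15 to 19 in muMT (20), from 19 to 22 in the difference (21), from 15 to 18 for the hosts under isotype (17) and from 25 to 33 for the hosts under anti-CTLA-4 (32). The lowest WT count, 11, came without WT anti-CTLA-4 replicate 2. The Wald test of DESeq2 called 12, 16, 20, 15 and 28 in the same order. With the replicate block, the counts were 15, 20, 20, 17 and 32. Same-numbered libraries did not deviate together (correlations -0.0415 to 0.0166). These correlations over all tested genes cannot exclude a pairing with a small effect or one that touches few genes. Other scalings moved the median of all genes by at most 0.0566 on the log2 scale. The fit of only the libraries compared cannot give the difference. Leaving out a library leaves that group with 1, which is then assumed to vary like the others.

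Scarce members set the limits here: those under 10 CPM hold 43 to 711 reads over all libraries, and most of their fold changes have wide errors. Sorted phagocytes are mixed in these libraries, and changes within a cell type and changes of cell mixture cannot be told apart.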
